A study of Mus musculus with 6 samples.

Results

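The genes described here encode the nuclear subunits of mitochondrial respiratory complexes III and IV and of ATP synthase, which is also called complex V, together with cytochrome c. They were chosen by name: symbols that begin with Uqcr or Atp5, those that begin with Cox, a digit from 4 to 8 and a letter, and Cyc1 and Cycs. This gave 45 of the 22180 genes measured, each read from its probe set with the highest mean. Of these, 8 belong to complex III, 1 is cytochrome c, 17 belong to complex IV, 17 belong to ATP synthase, and 2 are pseudogenes, Uqcrh-ps1 and Atp5c1-ps. Another 2 genes, Uqcr10 and Cox6c, share their probe sets with a second symbol and were not analysed here.

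Liver RNA came from male mice of the substrains Balb/c, marked WT in the labels, and Balb/cBy, marked KD. Both groups were 20 weeks old and had eaten a diet with 58% of its energy as fat for 12 weeks, starting at 8 weeks of age. There were 3 mice per substrain and 1 array per mouse, and all groups analysed had this diet. The labels do not say which gene KD refers to. BALB/cBy mice are known to carry a deletion in Acads, a fatty acid oxidation enzyme, and the log2 value of Acads read 11.53, 11.46 and 11.28 in Balb/c against 10.60, 10.79 and 10.93 in Balb/cBy. The groups did not overlap, and the difference was -0.65 ± 0.12 (SE), with an adjusted limma p of 0.319. The 6 arrays were alike as a whole, with medians between 7.98 and 8.03, which quantile normalization of the deposited values largely sets. Pairs of arrays correlated at 0.977 to 0.990 within a substrain and at 0.977 to 0.991 between substrains.

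Complex III passes electrons from ubiquinol to cytochrome c, and complex IV passes them from cytochrome c to oxygen. Both pump protons across the inner mitochondrial membrane, and ATP synthase makes ATP as the protons flow back. Liver draws on this chain to oxidise fatty acids and to supply ATP for glucose, urea and protein synthesis. Cytochrome b of complex III, the catalytic core of complex IV and some membrane subunits of ATP synthase are encoded by mitochondrial DNA. Those 6 subunits had no probe set of a single name and were not analysed here.

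The promoter sequences of a few members show which regulatory letters lie close to the start of these genes. Nuclear respiratory factor 1 (NRF1) and GABP are known regulators of respiratory chain genes. Of the 43 protein-coding members, 33 were found in a RefSeq promoter table of the build GRCm38.p6, with 36 start sites. The 250 bases before each start were searched on both strands. The NRF1 core GCGCANGCG was present in 7 of these 36 windows (19.4%), against 5.16% of all 32851 windows in the table. The GABP motif CCGGAAGT was in 3 (8.33% against 2.88%) and the YY1 motif AAGATGGC in 1 (2.78% against 1.56%). The estrogen-related receptor motif CAAGGTCA was in 2 (5.56% against 1.33%). The motifs were chosen with the sequences at hand and the windows were not matched for base content, so these shares are descriptions. The sequences below belong to cytochrome c and to the member with the smallest p in each of complex III, complex IV and ATP synthase. They run 5′ to 3′ toward the start site, all on the minus strand, at chr4:116075071-116075320 for Uqcrh, chr6:50566570-50566819 for Cycs, chr9:79759854-79760103 for Cox7a2 and chr11:115419920-115420169 for Atp5h. Capitals mark motif matches: GABP in Uqcrh, the NRF1 core in Cycs, and the NRF1 core followed by GABP in Atp5h. Cox7a2 held none of these letters in this window.
Uqcrh: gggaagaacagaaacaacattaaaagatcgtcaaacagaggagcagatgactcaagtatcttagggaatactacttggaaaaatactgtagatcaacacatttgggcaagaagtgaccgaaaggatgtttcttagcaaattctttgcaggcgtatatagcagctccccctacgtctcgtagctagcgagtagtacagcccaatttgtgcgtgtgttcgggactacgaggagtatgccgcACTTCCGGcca
Cycs: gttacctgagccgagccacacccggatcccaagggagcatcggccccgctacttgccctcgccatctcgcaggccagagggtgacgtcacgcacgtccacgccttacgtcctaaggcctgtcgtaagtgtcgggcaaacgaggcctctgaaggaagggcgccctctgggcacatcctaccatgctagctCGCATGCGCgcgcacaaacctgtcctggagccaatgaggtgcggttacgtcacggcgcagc
Cox7a2: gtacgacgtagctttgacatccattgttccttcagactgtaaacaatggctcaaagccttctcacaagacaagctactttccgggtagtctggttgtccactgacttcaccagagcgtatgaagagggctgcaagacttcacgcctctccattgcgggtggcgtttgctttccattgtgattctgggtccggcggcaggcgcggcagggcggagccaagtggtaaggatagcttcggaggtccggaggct
Atp5h: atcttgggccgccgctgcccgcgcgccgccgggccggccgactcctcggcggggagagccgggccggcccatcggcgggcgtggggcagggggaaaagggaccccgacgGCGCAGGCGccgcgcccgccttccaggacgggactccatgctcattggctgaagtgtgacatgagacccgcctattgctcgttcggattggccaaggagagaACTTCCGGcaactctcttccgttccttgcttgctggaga

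Across the 45 members, no difference between the substrains was resolved. Values are log2 array signals, and differences are Balb/cBy minus Balb/c with limma's moderated standard error (SE). None of the members passed limma's adjusted p of 0.05, where 0% of all genes passed (0 of 22180), and 1 member had an unadjusted p under 0.05, Uqcrh, against 3.74% of all genes (2.59% higher and 1.15% lower in Balb/cBy). The differences ran from -0.21 for Cycs to 0.29 for Uqcrh, which is 0.865 to 1.22 times the Balb/c level. Without Balb/c replicate 1 the count of 1 became 3 (Uqcrh, Cox7a2 and Atp5d), against 3.90% of all genes. Without Balb/cBy replicate 1 it stayed at 1, against 8.17% of all genes. It was 0 without any other single array, against 1.94% to 4.78% of all genes. Every adjusted p of a member was 0.999. The median difference was 0.043 over the members and -0.0028 over all genes.

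The direction leaned toward Balb/cBy: 32 members were higher and 13 lower, while 49.1% of all genes were higher and 50.9% lower. Bright genes as a whole also leaned toward Balb/cBy. With brighter probe sets alone, 43.4% of 11342 genes were lower, with a median difference of 0.020. Of the 35 members among them 10 were lower, with a median of 0.082. The part of brightness in the lean of the members was not tested. The split of 32 and 13 members moved with single arrays. Leaving out Balb/cBy replicate 3 gave 22 lower members and a median of 0.0029. Leaving out Balb/c replicate 1 or Balb/cBy replicate 1 gave 8 lower members each time, with medians of 0.097 and 0.11. In 4 members (Uqcrh, Cox7a2, Cox8a and Cox6a1) all 3 Balb/cBy arrays lay above all 3 Balb/c arrays, and in 0 they lay below. Over all genes the groups lay apart in 7.83%, with 4.32% higher and 3.51% lower in Balb/cBy.

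The arrays bounded how large a difference in array signal could be, for each gene taken singly. For 40 of the 45 members the 95% interval of the difference lay within 1.5-fold in both directions, and for all 45 it lay within 2-fold. The share of all genes with such intervals was not computed, so these counts do not set the members apart. Low array values are compressed. For the 11 members below the background level given further on, a narrow interval therefore does not bound the change in transcript. The 5 members with a wider interval were Cox7b, Cox8b, Atp5md, Atp5e and Atp5l, and each of them reached past 1.5-fold on the side of Balb/cBy. The intervals of all members except Uqcrh included 0.

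**Figure D1:**
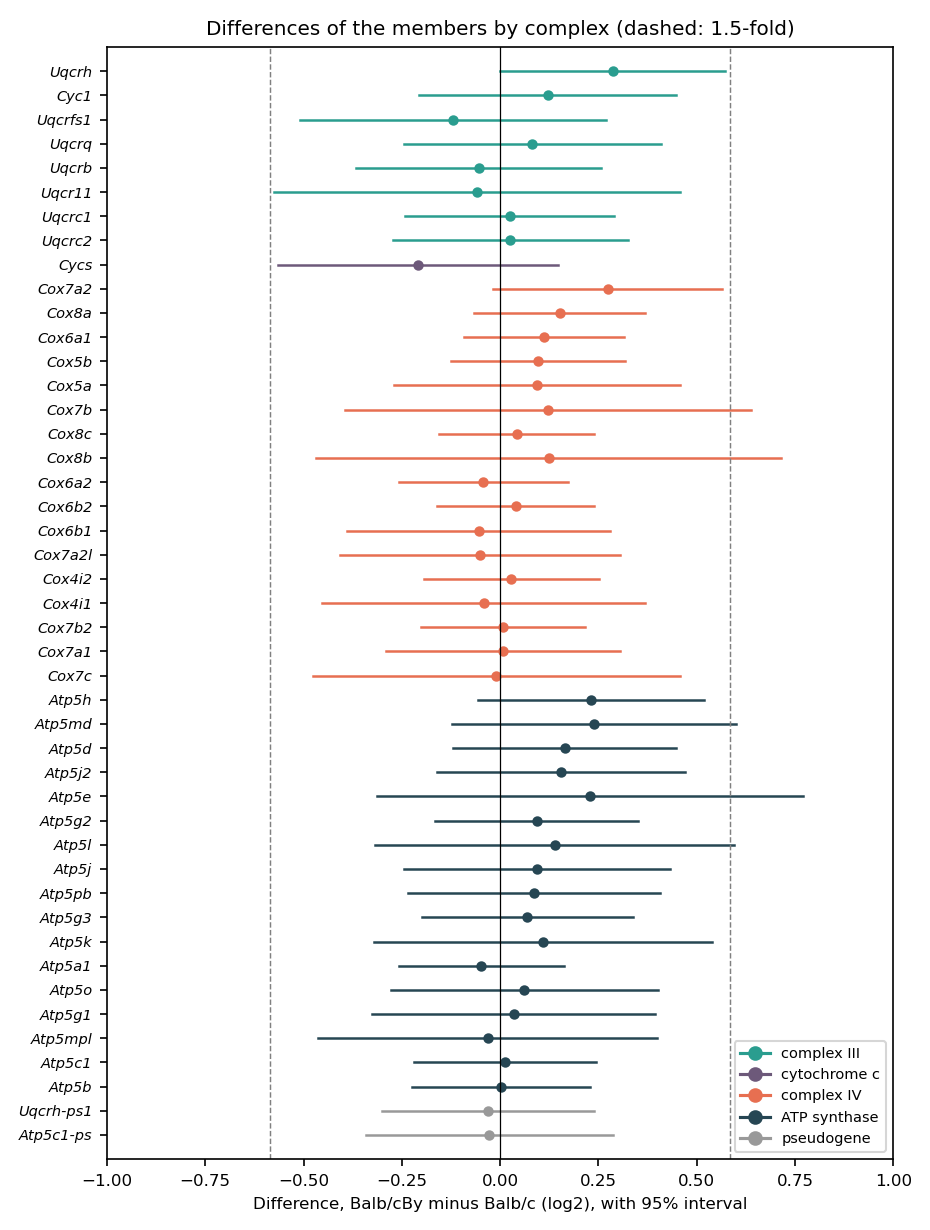
Difference of each member (points, Balb/cBy minus Balb/c, log2) with its 95% interval (lines), coloured by complex, with dashed lines at 1.5-fold. All points lie between -0.21 and 0.29, and 5 intervals cross the dashed line on the right.

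Complex III was represented by its core proteins, its redox subunits and its small subunits. Its 8 members split into 5 higher and 3 lower, and their median difference was 0.025. Uqcrh, the hinge protein that helps cytochrome c1 meet cytochrome c, read 9.78, 9.47 and 9.74 in Balb/c and 9.80, 10.11 and 9.93 in Balb/cBy. The lowest Balb/cBy array lay just above the highest Balb/c array. Its difference was 0.29 ± 0.12 (SE), with an unadjusted limma p of 0.0498 and an adjusted p of 0.999; without Balb/c replicate 2 it was 0.19. Its pseudogene Uqcrh-ps1 differed by -0.03 ± 0.12 (SE).

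The electron-carrying subunits of complex III went in opposite directions within their error. Cyc1, cytochrome c1, read 11.65, 11.40 and 11.23 in Balb/c and 11.33, 11.64 and 11.68 in Balb/cBy, a difference of 0.12 ± 0.14 (SE). Uqcrfs1, the Rieske iron-sulfur protein, read 9.59, 9.67 and 9.14 against 9.09, 9.42 and 9.53, a difference of -0.12 ± 0.17 (SE). In both genes the groups overlapped, and in both Balb/c replicate 3 and Balb/cBy replicate 1 were the lowest arrays. The core proteins Uqcrc1 and Uqcrc2 differed by 0.02 ± 0.12 and 0.03 ± 0.13 (SE), the smallest differences of the complex. The small subunits Uqcrq, Uqcrb and Uqcr11 lay between -0.06 and 0.08.

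Cytochrome c, encoded by Cycs, was the member with the lowest difference. This small heme protein shuttles electrons between complexes III and IV and also triggers caspase activation when released from mitochondria. It read 12.47, 12.02 and 12.19 in Balb/c and 11.81, 11.96 and 12.27 in Balb/cBy. The highest Balb/cBy array lay inside the Balb/c range, and the difference was -0.21 ± 0.15 (SE, 95% interval -0.57 to 0.15). Leaving out Balb/c replicate 1 gave -0.089, and leaving out replicate 1 or 3 of Balb/cBy gave -0.11 or -0.34.

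Complex IV, cytochrome c oxidase, showed the other 3 members whose groups lay apart. Its median difference was 0.039, with 12 of 17 members higher. Cox7a2, a small subunit of which striated muscle uses another form, read 11.93, 11.47 and 11.71 in Balb/c and 11.94, 12.05 and 11.94 in Balb/cBy. The gap between the groups was narrow, because Balb/c replicate 1 lay just under the Balb/cBy arrays. Its difference was 0.27 ± 0.13 (SE), with an unadjusted limma p of 0.0622. Without Balb/c replicate 1 it was 0.39, and without Balb/c replicate 2 it was 0.16.

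Cox8a, the ubiquitous form of the smallest subunit, read 12.49, 12.45 and 12.54 in Balb/c and 12.62, 12.76 and 12.55 in Balb/cBy. Its difference was 0.15 ± 0.09 (SE). Cox6a1, a regulatory subunit of the non-muscle type, read 13.25, 13.23 and 13.11 against 13.35, 13.30 and 13.28, a difference of 0.11 ± 0.09 (SE). The replicates of both genes were close together, so that groups lying apart went with small differences. Cox5a and Cox5b, which contact the catalytic core, differed by 0.09 ± 0.16 and 0.10 ± 0.10 (SE), and Cox7c by -0.01 ± 0.20 (SE).

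Several complex IV subunits exist as a ubiquitous and a tissue-restricted form, and the pairs were compared between the substrains one gene at a time. Cox4i1, the ubiquitous form of subunit 4, read 11.75, 11.93 and 11.36 in Balb/c and 11.34, 11.73 and 11.85 in Balb/cBy. Cox4i2, its form of lung and other oxygen-sensing cells, read 7.90, 7.77 and 7.87 against 7.80, 7.82 and 7.99. Their differences were -0.04 ± 0.18 and 0.03 ± 0.10 (SE), with overlapping groups.

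The forms of heart and skeletal muscle are Cox6a2, Cox7a1 and Cox8b. Cox6a2 read 8.22, 8.39 and 8.40 in Balb/c and 8.25, 8.29 and 8.34 in Balb/cBy. Cox7a1 read 8.36, 8.43 and 8.24 against 8.16, 8.29 and 8.60. Cox8b read 8.11, 8.25 and 7.42 against 7.61, 8.12 and 8.42, the widest range over the 6 arrays of any member. Balb/c replicate 3 and Balb/cBy replicate 1 were its lowest arrays, as in the redox subunits of complex III. The differences were -0.04 ± 0.09, 0.01 ± 0.13 and 0.12 ± 0.26 (SE) in this order. Of 6 striated muscle markers, 4 lay above the stand-in for background given next, and their mean ran from 7.74 to 8.05 in Balb/c and from 7.88 to 8.14 in Balb/cBy; their part in the values was not tested.

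The testis forms Cox6b2, Cox7b2 and Cox8c were steady: Cox6b2 ran from 7.85 to 7.98 over the 6 arrays, Cox7b2 from 5.28 to 5.45 and Cox8c from 6.77 to 6.90. As a stand-in for background, the 95th percentile of the mean values of 1105 olfactory receptor genes was 8.02. The means of 5 of the 7 tissue-restricted genes lay below it, with Cox6a2 and Cox7a1 above. Among the 10 other genes of complex IV, Cox7c alone lay below it, with a mean ± SD of 7.25 ± 0.18 over the 3 Balb/c arrays and 7.24 ± 0.42 over the 3 Balb/cBy arrays. Cox7c serves in all tissues, so a value under this level is not a sign that a gene is silent. Of all 45 members 34 lay above the level; the others below it were Atp5j2, Atp5o, Atp5g1 and both pseudogenes.

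Of the ubiquitous partners, Cox6b1, which lines the cytochrome c side of the complex, read 11.85, 11.62 and 11.54 in Balb/c and 11.33, 11.71 and 11.80 in Balb/cBy. Cox7b read 12.33, 11.58 and 12.54 against 12.17, 12.32 and 12.34. Balb/c replicate 2 stood low for Cox7b, and without it the difference of 0.12 ± 0.22 (SE) was -0.16. Cox7a2l, an assembly factor that joins complexes III and IV into supercomplexes, read 8.26, 8.25 and 8.22 in Balb/c and 7.82, 8.34 and 8.41 in Balb/cBy. Balb/cBy replicate 1 stood low, and without it the difference of -0.05 ± 0.16 (SE) was 0.13.

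**Figure D2:**
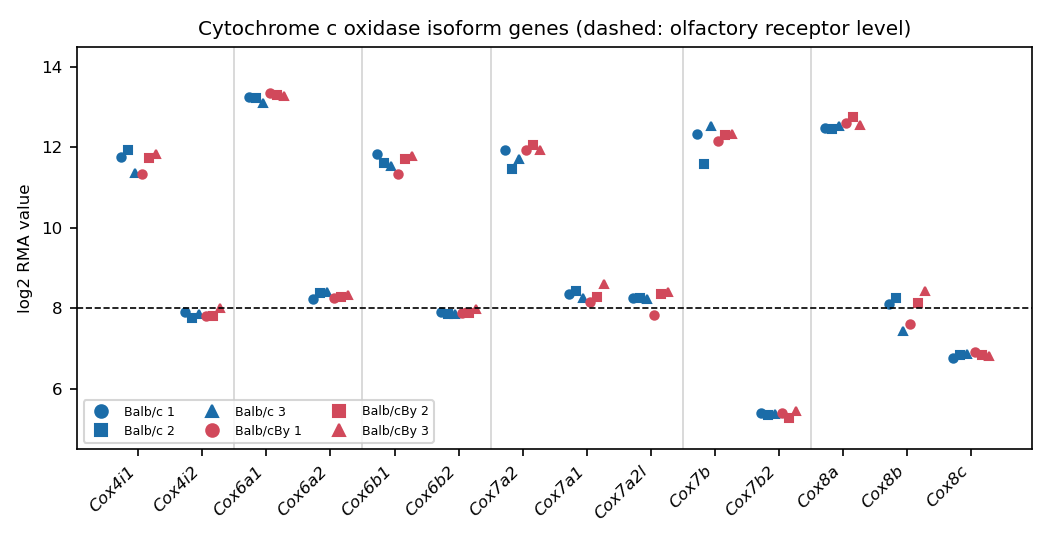
Log2 values of the 14 complex IV genes with alternative forms on each of the 6 arrays, with forms of one subunit side by side and a dashed line at 8.02, the olfactory receptor level. The blue Balb/c and red Balb/cBy points overlap in all but Cox6a1, Cox7a2 and Cox8a.

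For ATP synthase, 15 of 17 members were higher in Balb/cBy, and the median difference was 0.093. None had an unadjusted p under 0.05, and in none did the groups lie apart. The catalytic F1 part, which makes ATP, gave a median of 0.013 over 5 genes. Its β subunit Atp5b read 13.32, 13.07 and 13.26 in Balb/c and 13.23, 13.22 and 13.20 in Balb/cBy, a difference of 0.0015 ± 0.10 (SE). The α subunit Atp5a1 and the γ subunit Atp5c1 differed by -0.05 ± 0.09 and 0.01 ± 0.10 (SE). Within ATP synthase these genes bounded the difference most tightly, with intervals from -0.26 to 0.16 for Atp5a1 and from -0.23 to 0.23 for Atp5b.

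The δ and ε subunits of the central stalk spread more widely. Atp5d read 12.13, 11.84 and 11.73 in Balb/c and 11.96, 12.13 and 12.11 in Balb/cBy, a difference of 0.16 ± 0.12 (SE) that ran from 0.079 to 0.28 with single arrays left out. Atp5e read 10.41, 9.88 and 9.63 against 9.80, 10.29 and 10.52, a difference of 0.23 ± 0.24 (SE). The groups overlapped in both genes.

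The peripheral stalk keeps the catalytic part from turning with the rotor. Its 4 genes were all higher in Balb/cBy, by 0.06 to 0.23. Atp5h, subunit d, read 11.70, 11.33 and 11.57 in Balb/c and 11.65, 11.91 and 11.72 in Balb/cBy. The groups overlapped at their edge, and the difference was 0.23 ± 0.12 (SE, 95% interval -0.06 to 0.52). Without Balb/c replicate 2 it was 0.13. A second probe set of Atp5h averaged 6.49 and differed by 0.11 ± 0.13 (SE). Which gene copy each set matches was not tested. Atp5j, Atp5pb and Atp5o differed by 0.09 ± 0.15, 0.09 ± 0.14 and 0.06 ± 0.15 (SE). For Atp5j and Atp5pb the Balb/cBy arrays spread by 0.03 and 0.04 (SD, n = 3), while Balb/c replicate 2 stood low at 8.82 and 10.54.

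The c ring is the rotor through which protons pass, and 3 genes are known to encode the same mature c subunit. Atp5g1 read 7.996, 8.11 and 7.70 in Balb/c and 8.05, 7.68 and 8.17 in Balb/cBy. Atp5g2 read 12.29, 12.20 and 12.02 against 12.19, 12.41 and 12.19. Atp5g3 read 10.72, 10.44 and 10.50 against 10.46, 10.69 and 10.72. Their differences were 0.03 ± 0.16, 0.09 ± 0.11 and 0.07 ± 0.12 (SE), so none of the genes of this subunit moved beyond its error.

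Among the small membrane subunits that hold ATP synthase dimers together, 4 of 5 were higher (median 0.14). Atp5md, also called Usmg5 or DAPIT, read 13.23, 12.67 and 13.10 in Balb/c and 13.40, 13.20 and 13.11 in Balb/cBy. Balb/c replicate 2 stood low, and without it the difference of 0.24 ± 0.16 (SE) was 0.072. Atp5j2, Atp5l and Atp5k (subunits f, g and e) differed by 0.16 ± 0.14, 0.14 ± 0.20 and 0.11 ± 0.19 (SE), and Atp5mpl by -0.03 ± 0.19 (SE). The pseudogene Atp5c1-ps differed by -0.03 ± 0.14 (SE).

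The members varied between arrays of one substrain by more than most of their differences between substrains. Their SD within groups had a median of 0.191, against 0.142 over all genes, and their range over the 6 arrays a median of 0.51. In each of complex III, complex IV and ATP synthase, the highest means were those of Balb/c replicate 1 and Balb/cBy replicates 2 and 3. For complex III the means were 11.09, 10.88 and 10.78 in Balb/c and 10.77, 11.01 and 11.09 in Balb/cBy. For complex IV they were 9.69, 9.59 and 9.56 against 9.51, 9.73 and 9.76. For ATP synthase they were 10.51, 10.26 and 10.30 against 10.35, 10.51 and 10.50. Each substrain thus held both high and low arrays. The means over all genes stayed between 8.04 and 8.07. The deposited values were quantile-normalized, so these flat means cannot show whether the order was particular to the members.

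Single members followed the same order. Of the 45, 15 were lowest on Balb/cBy replicate 1, 14 on Balb/c replicate 2 and 11 on Balb/c replicate 3, which leaves 3 on Balb/c replicate 1, 2 on Balb/cBy replicate 2 and 0 on Balb/cBy replicate 3. The low arrays differed in which members were low. Cox7b, Atp5md, Atp5j and Atp5pb were lowest on Balb/c replicate 2, Atp5e and Cox8b on Balb/c replicate 3, and Cox7c, Cox4i1, Cox7a2l and Uqcr11 on Balb/cBy replicate 1. The quality weights that limma gave the arrays were 2.04, 0.805 and 0.635 in Balb/c and 0.471, 0.824 and 2.47 in Balb/cBy, lower on the 3 arrays with low members than on the others. The mean of 8 hepatocyte markers, all above the olfactory receptor level, was 13.46, 13.40 and 13.49 in Balb/c and 13.43, 13.52 and 13.49 in Balb/cBy. All 6 markers of stellate cells, the collagen-making cells of liver, lay above the olfactory receptor level. Their mean was 9.87, 9.63 and 9.54 in Balb/c and 9.68, 9.84 and 10.05 in Balb/cBy, highest on the same 3 arrays as the members, but single markers such as Col1a1 and Des were ordered otherwise. The mean of 7 Kupffer cell markers was 9.94, 10.20 and 9.37 in Balb/c and 9.54, 9.88 and 10.03 in Balb/cBy, highest on an array with low members. The part of array quality and of cell makeup in the order of the arrays was not tested, and in whole liver fewer cells of a type and less RNA per cell cannot be told apart.

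**Figure D3:**
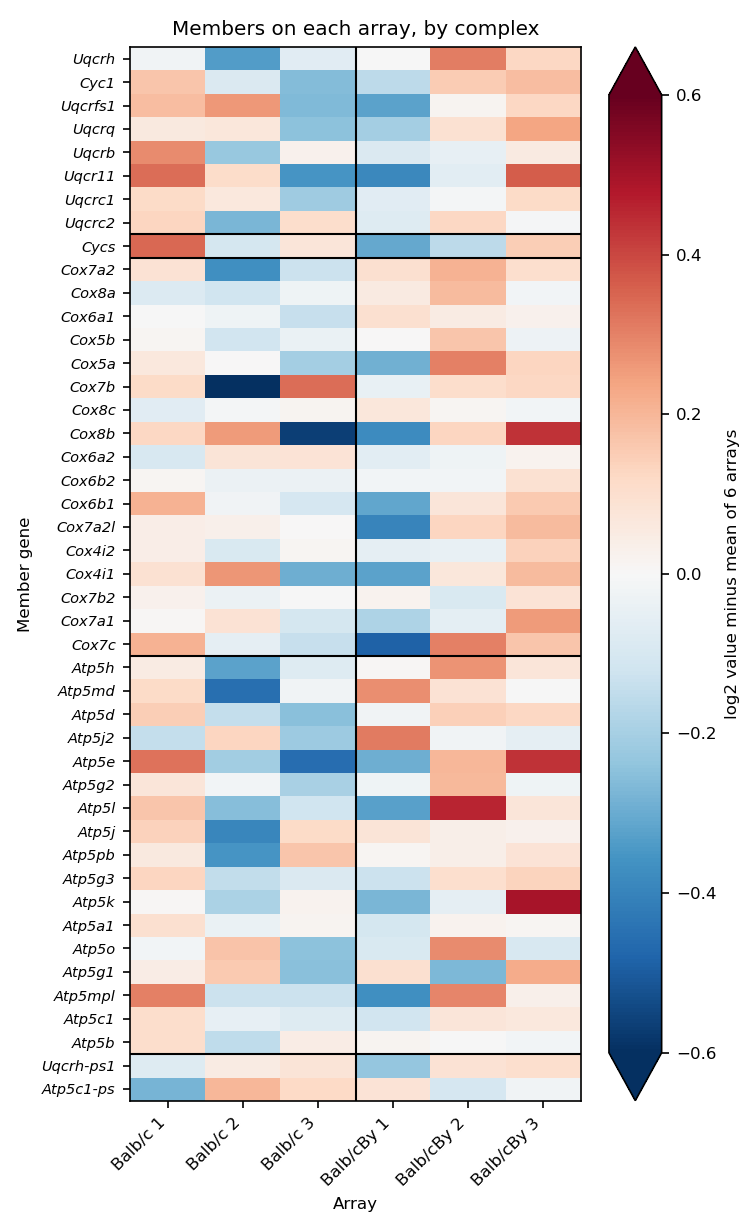
Each member (rows, grouped by complex) on each array (columns), as its log2 value minus its mean over the 6 arrays, red above and blue below. Blue cells gather on Balb/cBy replicate 1, where 15 of the 45 members were lowest, and on Balb/c replicates 2 and 3, where 14 and 11 were.

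**Figure D4:**
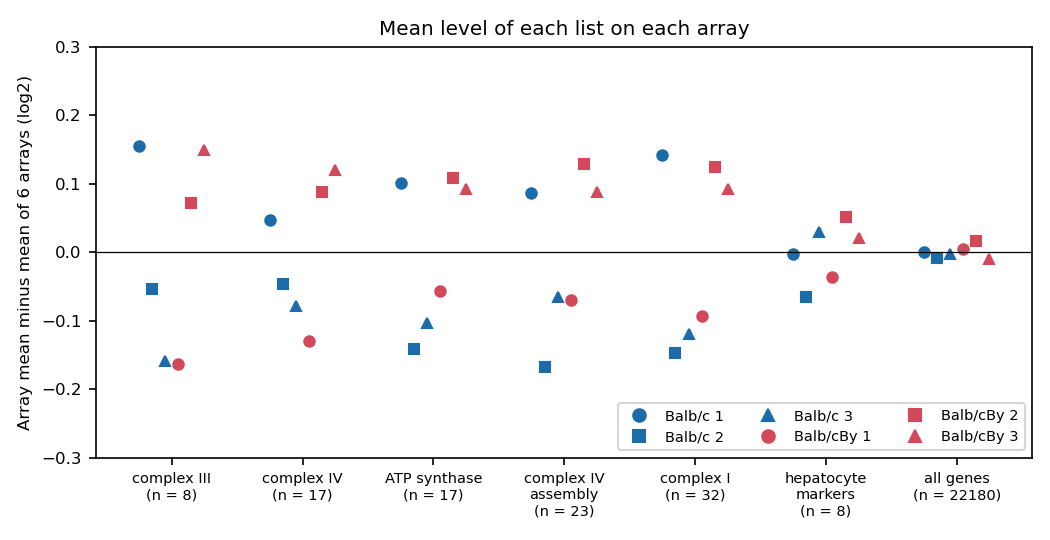
Mean log2 value of each gene list on each array, minus the mean over the 6 arrays, with blue symbols for Balb/c and red for Balb/cBy. Balb/c replicate 1 and Balb/cBy replicates 2 and 3 are the highest arrays in the 5 respiratory chain lists shown. All genes stay close to 0, which quantile normalization largely sets.

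The order of the arrays was shared by other mitochondrial genes. Of 8 lists of related genes that were measured, 7 had their 3 highest means on the same arrays; the list of transcription and mitochondrial DNA regulators was the exception. Complex I, the first proton pump of the chain, had means of 10.35, 10.06 and 10.08 in Balb/c and 10.11, 10.33 and 10.30 in Balb/cBy. Its median difference was 0.074 over 32 subunits, 25 higher and 7 lower. Of these, 3 higher and 1 lower had an unadjusted p under 0.05, against 2.59% and 1.15% of all genes, and 0 passed the adjusted p. Ndufc1 differed by 0.31 ± 0.12, Ndufa2 by 0.35 ± 0.13 and the other higher one, Ndufs8, by 0.49 ± 0.20 (SE). The lower one, Ndufa6, differed by -0.31 ± 0.12 (SE). Ndufs8 and Ndufa6 were named after their values were seen. The 4 subunits of complex II, which feeds electrons from succinate, had a median of -0.066, with Sdha at -0.14 ± 0.13 and Sdhb at -0.21 ± 0.22 (SE). Both rested on single arrays: Sdha was at -0.013 without Balb/c replicate 3, and Sdhb at -0.0099 without Balb/cBy replicate 1. Of 11 measured genes of general mitochondrial content 8 were higher, with a median of 0.079. Tomm20, an import receptor of the outer membrane, differed by 0.34 ± 0.14 and Cs, citrate synthase, by 0.14 ± 0.11 (SE). Tomm20 was the 1 gene of this list with an unadjusted limma p under 0.05 (0.0458), where 3.74% of all genes had one.

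Assembly factors insert copper and heme into complex IV or chaperone its new subunits. The list of complex IV factors, which also holds the subunit Ndufa4, had 23 measured genes. Of these, 17 were higher and 6 lower (median 0.064). The adjusted p was passed by 0, and 1 of the 23 had an unadjusted p under 0.05, where 3.74% of all genes did. This was Higd2a, which helps build complex IV and supercomplexes. It read 11.34, 11.16 and 11.30 in Balb/c and 11.63, 11.79 and 11.58 in Balb/cBy. All Balb/cBy arrays lay above all Balb/c arrays, and the difference was 0.40 ± 0.10 (SE, 95% interval 0.17 to 0.63), with an adjusted limma p of 0.978. With single arrays left out it stayed between 0.34 and 0.45. Pet100, a small factor of the same complex, differed by 0.60 ± 0.26 (SE), with Balb/c replicate 3 low at 7.55; without that array it was 0.30.

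The factors of the other complexes gave no member at an unadjusted p under 0.05. Of 6 complex III factors 4 were higher (median 0.16), with Uqcc2 at 0.28 ± 0.20 and Lyrm7 at 0.18 ± 0.14 (SE). All 5 factors and inhibitors of ATP synthase that are no members were higher (median 0.13). Tmem242, an assembly factor, differed by 0.24 ± 0.12, and Atpif1, the protein that inhibits ATP hydrolysis, by 0.13 ± 0.09 (SE). In both genes the Balb/cBy arrays lay above the Balb/c arrays. The carriers that bring phosphate and ADP to ATP synthase were even, with 2 higher and 2 lower; Slc25a4 differed by 0.15 ± 0.14 and Slc25a31 by -0.14 ± 0.10 (SE), with its Balb/cBy arrays below its Balb/c arrays.

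Of 13 regulators of mitochondrial genes, 6 were higher and 7 lower, with a median near 0 (-0.0012). An unadjusted p under 0.05 was found for 2 of them, both lower and both with groups that lay apart, against 1.15% of all genes lower at that p and 3.51% apart and lower. Tfam, which packages and transcribes mitochondrial DNA, read 8.34, 8.37 and 8.47 in Balb/c and 7.91, 8.07 and 8.17 in Balb/cBy. Gabpa, the DNA-binding subunit of GABP, read 8.84, 8.81 and 9.12 against 8.44, 8.48 and 8.67. For both, every Balb/cBy array lay below every Balb/c array, and the differences were -0.34 ± 0.10 and -0.39 ± 0.12 (SE). Neither passed, with an adjusted limma p of 0.999 for each and unadjusted p-values of 0.00881 and 0.0105. The members with the GABP motif in the windows searched, Uqcrh, Atp5h and Uqcr11, differed by 0.29, 0.23 and -0.06. A motif match does not show binding, and a link of these values to Gabpa was not tested.

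**Figure D5:**
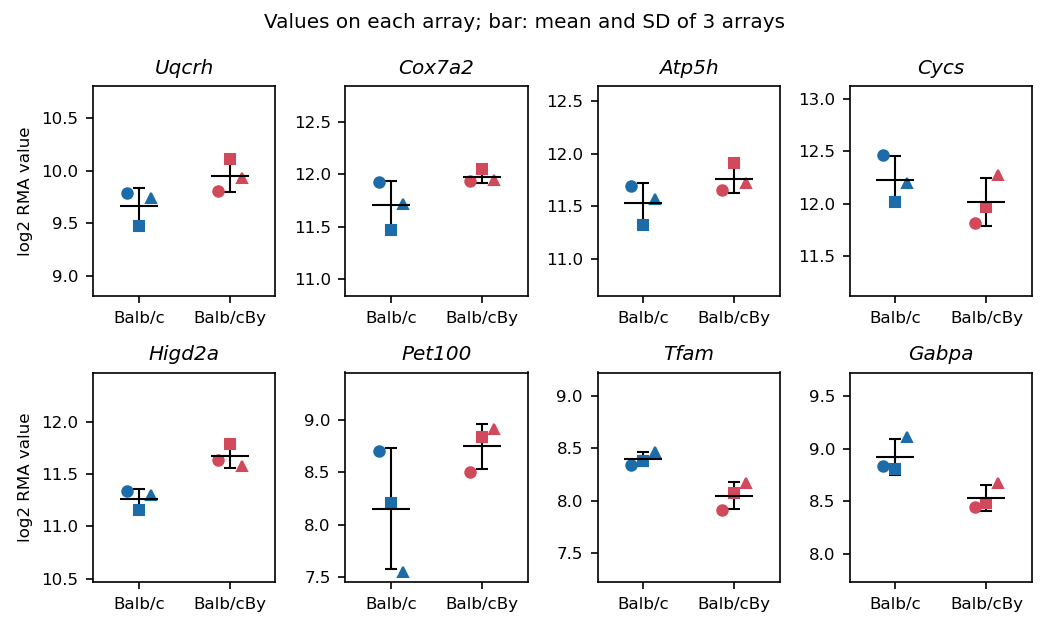
Log2 values on each array for Uqcrh, Cox7a2, Atp5h and Cycs (top) and for Higd2a, Pet100, Tfam and Gabpa (bottom), with the mean and SD of 3 arrays, each panel spanning 2 log2 units. Balb/cBy lies above Balb/c without overlap for Uqcrh, Cox7a2 and Higd2a and below it for Tfam and Gabpa.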

How the data were processed

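The authors deposited 1 log2 value for each probe set on each array. They used RMA, per the submitters' processing notes; software version and genome build: not given in the sources used here. RMA quantile-normalizes arrays and compresses low values, which makes differences of dim genes look smaller. The protocols in the labels start from 500 ng of RNA per mouse. The table holds 41345 probe sets, of which 23521 carry 1 gene symbol in the platform annotation (22180 genes), 1814 carry several and 16010 are unlisted.

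limma 3.58.1 in R 4.3.3 fitted the substrain as the single term to the 23521 probe sets, with two-sided p-values adjusted by Benjamini-Hochberg over all of them and a threshold of 0.05. No filter on low values was used, so all 45 members were tested. Arrays of a group are biological replicates in the labels. With 3 against 3 arrays an exact permutation test cannot go below 0.1, and the number of arrays limits the precision. Levels of different genes come from different probes, and they were compared only with the olfactory receptor level, a rough stand-in for background. The fit was checked on simulated arrays with independent noise and planted changes of 1.5-fold or more, larger than any difference of a member. The fit had to follow the planted changes and call most of the largest ones. Calls of the 1.5-fold changes were not required. That check does not show how smaller changes, or arrays of unequal quality, are handled.

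Members and lists were chosen with earlier results of these data known. Values on each array are given for the 3 members with the smallest p in each complex, Cyc1, Cycs and genes with alternative forms, and for Atp5b and Atp5e, which were added after their values were seen. Among other genes, 2 per list are named, and Ndufs8 and Ndufa6 besides. Other members are given by their difference, or as a range. Alternatives were other moderation, array weights, a replicate block, other normalization, averaged probe sets, brighter or all probe sets, and leaving out each array. Replicate numbers did not pair the arrays: deviations of same-numbered arrays correlated at -0.32, -0.19 and -0.23 over the tested probe sets. Sequences are from RefSeq (GRCm38.p6).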

Additional observations from a re-analysis of the deposited data

How the results depend on the processing

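None of the 45 members passed the adjusted p under any alternative; the smallest was 0.469, without the 2 arrays of lowest weight, a setting chosen after seeing the data. The median difference stayed above 0, from 0.0029 to 0.11 when single arrays were left out. The array means of the members had an SD of 0.11 within substrains, which is not a standard error of that median. Members lower in Balb/cBy numbered 8 with array weights and 8 to 22 without single arrays. Members at an unadjusted p under 0.05 numbered 0 with a mean trend and robust moderation, without moderation and with median centring. They also numbered 0 with brighter probe sets alone and with every probe set, and 0 to 3 without single arrays. In these settings 1.94% to 8.17% of all genes tested had such a p. The replicate block also gave 0 such members, against 2.28% of all genes, and no array deviated most like the one with its own number.

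Of 40 named genes, 28 kept their sign under every alternative. Array weights turned Cox4i1 (0.037), Cox6a2 (0.025) and Cox7a2l (0.072), and renewed quantile normalization turned Cox7a1 (-0.014). Without the 2 arrays of lowest weight Cox6a2 (0.0085), Cox6b1 (0.023), Cox7a2l (0.12), Cox7b2 (-0.00094), Atp5g1 (-0.12) and Sdha (0.016) turned. Leaving out 1 array gave ranges across 0 of -0.28 to 0.010 for Uqcrfs1, -0.20 to 0.11 for Cox4i1, -0.034 to 0.061 for Cox4i2, -0.15 to 0.088 for Cox6b1, -0.12 to 0.10 for Cox7a1 and -0.16 to 0.13 for Cox7a2l. The same held for Cox7b (-0.16 to 0.32), Cox7b2 (-0.032 to 0.055), Cox8b (-0.13 to 0.34) and Atp5g1 (-0.083 to 0.18). None of these genes had an unadjusted limma p under 0.05 under the reported settings; the cause was not tested.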

Other observations

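For 7 members more than 1 probe set carried the symbol, and the members' 45 genes had 55 probe sets in all. The 5 probe sets of Cycs all gave a lower value in Balb/cBy, by -0.21 to -0.12, though those reading 9.15 on average are identical copies of each other on every array. Cycs is known for many processed pseudogenes, and which copies its probes match was not tested. The second probe sets of Atp5d, Atp5e and Atp5g2 differed by 0.05 ± 0.09, 0.12 ± 0.13 and 0.09 ± 0.11 (SE), with the same sign as those reported above. For Atp5h, Cox5b and Cox7b the second probe set averaged 6.49, 7.68 and 7.56, below the olfactory receptor level, and differed by 0.11 ± 0.13, 0.0074 ± 0.15 and 0.00095 ± 0.15 (SE). The values given above for Atp5h, Cox5b and Cox7b rest on probe sets that averaged 11.65, 12.03 and 12.21. Which gene copies the probe sets of any of these members match was not tested.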
